A study of Mus musculus with 6 samples.

Results

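The CD300 and TREM genes of CNS monocytes were described here as 10 genes chosen by name, of the 54232 genes in the deposited tables. They are the CD300 receptor genes *Cd300a*, *Cd300c2*, *Cd300lb*, *Cd300ld*, and *Cd300lf*, the TREM and TREM-like receptor genes *Trem1*, *Trem3*, *Treml2*, and *Treml4*, and *Tyrobp*, which encodes the adaptor DAP12 and is not itself a receptor of either family. All 10 were found by their GENCODE M21 symbols, and all 10 had enough counts to be tested. None of them passed the test for a difference between WT and Ifnar1-/- monocytes with edgeR, which called 2.13% of all tested genes. *Treml2* and *Cd300lf* were nearest to it, with 2.14-fold and 1.51-fold higher estimates in WT monocytes. DESeq2, the tool the study used, called both, against 3.83% of all genes it tested.

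RNA-seq was done on 6 libraries of monocytes sorted from the CNS of chimera mice with EAE, a mouse model of multiple sclerosis. Irradiated GFP+ recipients had been given equal parts of CD45.1 (WT) bone marrow and CD45.2 bone marrow that was Ifnar1-/-. They were immunized 6 to 7 weeks later and received rIFN-β daily, for which the paper states a dose, 30000 IU, only in its first EAE experiment. The 3 WT and the 3 Ifnar1-/- libraries are therefore GFP-CD45+CD11b+Ly6ChiLy6G- cells of donor origin that had matured in rIFN-β-treated animals, and no library came from untreated mice. The comparison asks which transcripts depend on the type I IFN receptor of the monocyte itself, and in this design receptor genotype and donor line cannot be told apart. There were 3 recipient mice, each with marrow of both donors, but which library came from which mouse and the ages of the mice are not given in the sources used here, so the p-values measure the spread between these libraries.

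CD300 and TREM receptors are immunoglobulin-domain proteins on the surface of myeloid cells, where several of them bind lipids of dying cells or bacterial and host ligands. Inhibitory members carry ITIMs in their cytoplasmic tails, which recruit the phosphatases SHP-1 and SHIP. Activating members have short tails and signal through an adaptor with an ITAM, mainly DAP12 or the Fc receptor γ chain, to the kinase SYK. The CD300 genes lie side by side on chromosome 11, from 114890041 (*Cd300a*) to 115133992 (*Cd300lf*) in GRCm38, and the TREM genes on chromosome 17, from 48232768 (*Trem1*) to 48312533 (*Treml2*). *Tyrobp* is on chromosome 7. None of the 10 is on the chromosome of *Ptprc* (CD45), which differs between the donors, or on that of *Ifnar1*.

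Totals were 4531782 to 7321380 expected counts in WT libraries and 5442568 to 6916101 in Ifnar1-/- libraries, and 3 counts, taken as the detection floor, correspond to 0.410 to 0.662 CPM before TMM scaling (counting error only). *Ifnar1* had 111 to 153 normalized CPM (CPM after TMM scaling of the library sizes) in WT and 102 to 110 in Ifnar1-/- libraries, and gene-level counts do not resolve its exons. The sort markers were present in every library, with *Itgam* (CD11b) at 1528 to 1983 normalized CPM. *Ly6c2*, a gene of the sort marker Ly6C, had 640 to 788 in WT and 177 to 337 in Ifnar1-/- libraries (log2 fold change 1.40, adjusted p = 0.00957 from edgeR). *Ccr2*, another marker of inflammatory monocytes, lay the other way without overlap, at 587 to 694 in WT and 794 to 1269 in Ifnar1-/- libraries (log2 fold change -0.62, adjusted p = 0.143 from edgeR), and the 10 markers on that list summed to 9643 to 11406 and 10076 to 11920. Markers of other cells were detected. The 12 neutrophil markers summed, in libraries 1, 2, and 3, to 487, 915, and 2479 normalized CPM for WT and to 1111, 979, and 2849 for Ifnar1-/- monocytes, with *Ly6g* at most at 0.790. The 10 T cell markers summed to 97.1 to 134 in WT and 48.2 to 55.9 in Ifnar1-/- libraries, with *Il7r* alone at 53.5 to 83.1 and 34.2 to 47.6. Of the 7 tested T cell markers, all had an unadjusted p under 0.05 (17.8% of all tested genes did), 0 were called by edgeR (2.13% of all genes), and 1, *Il7r*, by DESeq2 (3.83%). Summed levels overlapped between the groups for 10 microglia markers (260 to 330.5 in WT, 299 to 377 in Ifnar1-/-), 6 B cell markers (5.10 to 11.7 and 2.29 to 5.70), 8 dendritic cell markers (21.8 to 29.5 and 14.3 to 27.2), and 9 patrolling monocyte markers, *Treml4* among them (453 to 691 and 472 to 578). *Pax5*, a B cell marker, was at 0 in all libraries. The part of such cells in the results was not tested, and in bulk RNA fewer cells of a type and less RNA per cell cannot be told apart.

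RefSeq promoters of GRCm38.p6 (300 bases, 250 of them before the start of the gene) were found for 7 of the 10 genes. *Treml2*, *Trem3*, and *Tyrobp* had none, so theirs were not searched. The 7 were searched on both strands for letters bound by IFN-activated and myeloid factors. These were an IFN-stimulated response element written as GAAA, any 2 bases, and GAAA (in 3.44% of all 32851 promoters), a STAT element written as TTCNNNGAA (in 8.30%), and a PU.1 motif written as GAGGAAGT (in 3.20%). The promoters of *Cd300lf*, the receptor gene with the highest level, and of *Cd300c2* are shown. Of the 7 searched, only that of *Cd300c2* held the IFN-stimulated response element. Capitals mark the PU.1 letters in *Cd300lf* (chr11:115133943-115134242, minus strand) and the response element letters in *Cd300c2* (chr11:115001831-115002130, minus strand).
Cd300lf: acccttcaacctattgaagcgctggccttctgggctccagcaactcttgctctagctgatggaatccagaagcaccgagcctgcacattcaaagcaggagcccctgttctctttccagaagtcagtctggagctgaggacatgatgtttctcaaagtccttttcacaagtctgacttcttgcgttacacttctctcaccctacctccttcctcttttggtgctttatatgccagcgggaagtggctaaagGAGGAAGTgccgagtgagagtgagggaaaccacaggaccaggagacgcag
Cd300c2: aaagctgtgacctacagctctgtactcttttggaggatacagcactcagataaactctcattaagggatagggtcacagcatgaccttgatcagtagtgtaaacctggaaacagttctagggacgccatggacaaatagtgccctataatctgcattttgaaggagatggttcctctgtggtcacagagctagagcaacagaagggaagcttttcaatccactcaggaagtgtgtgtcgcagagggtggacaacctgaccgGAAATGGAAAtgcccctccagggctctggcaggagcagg
*Cd300ld* held the PU.1 letters and *Trem1* the STAT letters, and the promoters of *Cd300a*, *Cd300lb*, and *Treml4* held none of the motifs. A match is a description of these letters and not a binding site.

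The levels of the 10 genes differed widely within the same libraries. They were compared in TPM, which is per transcript length. *Tyrobp* had the highest level in all 6 libraries, with 522 ± 71.5 TPM (SD, n = 6), and *Cd300lf* the next highest in all 6, with 207 ± 57.7. The *Tyrobp* level was 1.90 to 3.63 times that of *Cd300lf*, and the ranges of the libraries did not overlap.

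*Trem1* (48.2 ± 7.85 TPM, SD, n = 6) and *Cd300c2* (46.4 ± 9.64) came next, and their ranges overlapped, with *Trem1* above *Cd300c2* in 3 of the 6 libraries. *Trem3* followed with 14.1 ± 4.82 TPM, then *Treml2* with 9.04 ± 3.73, *Cd300a* with 7.89 ± 1.86, *Cd300lb* with 4.81 ± 2.30, and *Cd300ld* with 4.41 ± 0.611. From *Trem3* down to *Cd300ld*, the range of each gene overlapped that of the next, so neighbors did not differ beyond their spread. *Treml4* had the lowest mean, with 1.97 to 3.56 TPM, under every value of *Cd300ld* (3.82 to 5.25), and *Cd300lb* was below it in 3 libraries. WT library 1 gave 27.8% of its TPM to the abundant small RNA gene *Rn7s2*, against 7.36% to 11.2% in the other libraries, which lowers all its other TPM, so WT and Ifnar1-/- libraries were compared in normalized CPM.

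**Figure D1:**
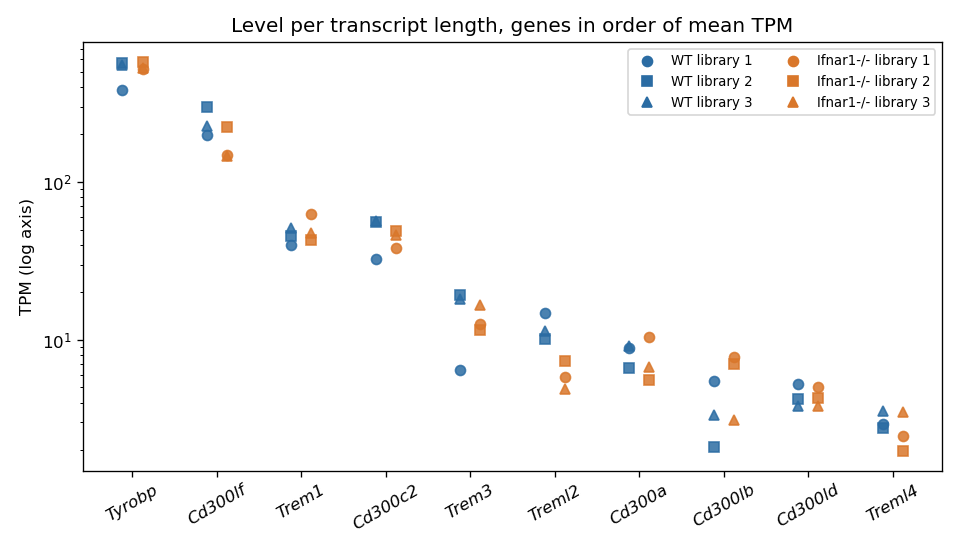
TPM on a log axis for each of the 10 genes, ordered by mean TPM, with a point for each library (blue, WT; orange, Ifnar1-/-). *Tyrobp* and *Cd300lf* lie above all other genes in every library, and *Treml4* has the lowest mean, with 1.97 to 3.56 TPM.

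Among the 11254 tested genes, 2.13% were called, 1.67% higher and 0.462% lower in WT monocytes, at an adjusted p of at most 0.05 from the edgeR quasi-likelihood test and a fold change of at least 1.5. Of the 10 CD300 and TREM genes, 0 were called in either direction. At an unadjusted p under 0.05 there were 2 of 10, *Treml2* and *Cd300lf*, both with WT higher, against 17.8% of all tested genes (9.69% with WT higher). DESeq2 called these 2 genes, against 3.83% of all genes it tested, 2.87% higher and 0.959% lower in WT. Limma-voom called 0 of the 10, against 1.96% of all genes (1.58% with WT higher). *Treml2* and *Cd300lf* were also called without a filter on low counts, against 2.87% of all genes with WT higher, and *Treml2* alone with offsets for GC content and length plus a replicate block (2.28%). The median log2 fold change was 0.08 over the 10 genes and -0.01 over all tested genes, with 6 values above 0 and 4 below. The libraries of the groups did not overlap for 3 of the 10 genes, *Treml2*, *Cd300lf*, and *Tyrobp*, against 23.4% of all tested genes.

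**Figure D2:**
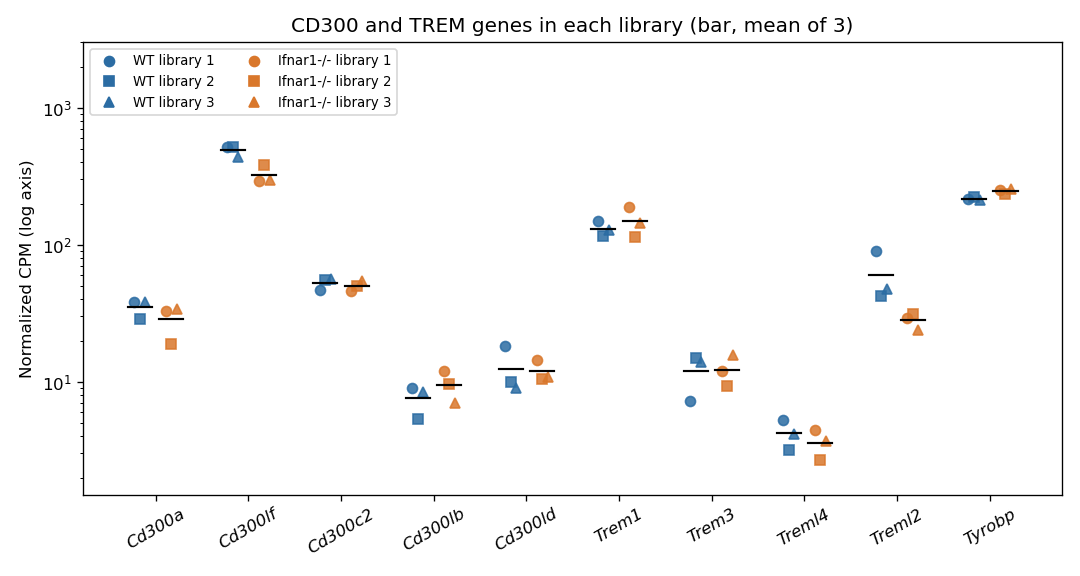
Normalized CPM on a log axis for the 10 genes in 3 WT (blue) and 3 Ifnar1-/- (orange) libraries, with black bars at group means. WT values lie above Ifnar1-/- values without overlap for *Cd300lf* and *Treml2*, and below them for *Tyrobp*.

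Inhibitory receptors of the CD300 family were measured as *Cd300lf* and *Cd300a*. *Cd300lf* (ENSMUSG00000047798.15) encodes CD300f, also named CLM-1, which binds phosphatidylserine and ceramide and has been studied in EAE as a brake on myeloid cells. Its normalized CPM in libraries 1, 2, and 3 was 514, 516, and 437 for WT and 294, 380, and 299 for Ifnar1-/- monocytes. No Ifnar1-/- value reached the lowest WT value. With edgeR its log2 fold change was 0.59 (SE 0.16, 95% interval 0.23 to 0.95, adjusted p = 0.101), a 1.51-fold estimate that sits at the fold threshold of 1.5. DESeq2 gave 0.61 (adjusted p = 0.0127). With offsets for GC content and gene length, edgeR gave 0.52 (adjusted p = 0.154), under the fold threshold. On the TPM scale the groups overlapped, with 200 to 300 in WT and 146 to 224 in Ifnar1-/- libraries. The gene overlaps *Rab37* on the opposite strand, which had 3 to 11 counts.

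*Cd300a* (ENSMUSG00000034652.12) encodes the inhibitory receptor CD300a (CLM-8), which binds phosphatidylserine and phosphatidylethanolamine. Normalized CPM was 38.0, 28.7, and 38.1 in WT and 32.7, 18.8, and 34.2 in Ifnar1-/- monocytes. The groups overlapped, and the lowest value of each group was in its library 2. The log2 fold change was 0.29 (95% interval -0.21 to 0.80, adjusted p = 0.539 from edgeR). The level of *Cd300lf* was 14.2 to 45.4 times that of *Cd300a* in TPM, so most transcripts of these 2 inhibitory receptors were *Cd300lf* in every library.

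The activating CD300 receptors were at lower levels than *Cd300lf*, and the groups overlapped for each of the 3. *Cd300c2* (ENSMUSG00000044811.13) encodes CLM-4, also named MAIR-II, which pairs with DAP12. Normalized CPM was 46.7, 55.7, and 55.9 in WT and 45.7, 50.2, and 54.2 in Ifnar1-/- monocytes. Its estimate was close to 0, with a fold of 1.05 (95% interval 0.848 to 1.31, adjusted p = 0.827 from edgeR), an interval that leaves out a 1.5-fold difference in either direction. This is the gene whose promoter held the response element letters shown above.

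*Cd300lb* (ENSMUSG00000063193.8) encodes CLM-7, or LMIR5, another partner of DAP12. Normalized CPM was 8.96, 5.31, and 8.49 in WT and 11.9, 9.66, and 6.99 in Ifnar1-/- monocytes, from 25 to 78 expected counts. *Cd300ld* (ENSMUSG00000034641.2) encodes CLM-5, which pairs with the Fc receptor γ chain. Normalized CPM was 18.2, 9.99, and 9.08 in WT and 14.4, 10.5, and 10.8 in Ifnar1-/- monocytes, and library 1 was the highest of both groups. The folds were 0.801 for *Cd300lb* (95% interval 0.521 to 1.23) and 1.06 for *Cd300ld* (0.685 to 1.63). The *Cd300lb* interval leaves out a 1.5-fold higher level in WT monocytes but not a 1.5-fold lower one. That of *Cd300ld* leaves out a 1.5-fold lower level but not a 1.5-fold higher one.

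Related copies could exchange reads in this family. Of all windows of 75 bases (the read length) in the transcripts of each gene, 5.19% of *Cd300c2* occurred in another gene, 2.33% of *Cd300ld*, 1.79% of *Cd300a*, and 1.12% of *Cd300lf*. The partners were *Cd300a* for *Cd300c2*, and *Cd300lf* for *Cd300ld*. *Cd300a* also shared windows with *Ccar1* and *Naip5*. None of the windows of *Cd300lb*, the 4 TREM genes, or *Tyrobp* was shared. The share of windows is not the share of counts in doubt, which also depends on the level of the partner. *Cd300ld* had 46.2 to 128 expected counts, and its partner *Cd300lf* had 1625 to 3611. How many reads were exchanged was not tested.

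*Treml2* (ENSMUSG00000071068.6) encodes TLT-2, a TREM-like receptor of neutrophils, macrophages, and B cells. Its normalized CPM was 89.9, 42.5, and 47.8 in WT and 29.2, 31.5, and 24.1 in Ifnar1-/- monocytes. All WT libraries lay above all Ifnar1-/- libraries, and WT library 1 was far above the others. With edgeR its log2 fold change was 1.09 (SE 0.26, 95% interval 0.51 to 1.68, adjusted p = 0.0686), the largest estimate and the smallest p of the 10 genes. DESeq2 gave 1.11 (adjusted p = 0.00593). With offsets for GC content and gene length, edgeR gave 0.86 (adjusted p = 0.0894). Without WT library 1 the log2 fold change was 0.68 (adjusted p = 0.1 from edgeR), and without WT library 2 it was 1.31 (adjusted p = 0.0443, with 1.76% of all genes called higher in WT), the only omission that brought a member past both thresholds. Over all 17 alternatives the adjusted p ranged from 1.1e-07, without a filter on low counts, to 0.249, for limma on TPM. On the TPM scale the groups did not overlap either, with 14.8, 10.1, and 11.4 in WT and 5.85, 7.34, and 4.87 in Ifnar1-/- libraries.

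Markers of the other cells that use *Treml2* are given beside it. The sum of the neutrophil markers was lowest, at 487 normalized CPM, in WT library 1, where *Treml2* was highest. *Csf3r*, the G-CSF receptor gene and a marker on that list, had 129, 82.5, and 92.0 in WT and 42.5, 67.8, and 62.0 in Ifnar1-/- monocytes. Its order was that of *Treml2* among the WT libraries but not among the Ifnar1-/- libraries. The groups did not overlap, with WT higher, as in 11.1% of all tested genes (adjusted p = 0.0895 from edgeR, and called by DESeq2). Of the 11 tested neutrophil markers, *Csf3r* was the only one without overlap, and 3 had log2 fold changes above 0 and 8 below. Of the 6 B cell markers, 4 had no more than 3 counts in any library. *Cd22* had 9.96, 3.61, and 5.13 normalized CPM in WT and 1.99 to 4.597 in Ifnar1-/- monocytes, highest in WT library 1 like *Treml2*, and *Cd79b* had 1.38 to 1.57 and 0.305 to 0.919, from at most 11 counts. The part of neutrophil and B cell RNA in *Treml2* was not tested. Of 10045 tested protein-coding genes outside the list, the levels most like *Treml2* across the 6 libraries were those of *Ifi207* (Pearson's r = 0.998), *Card19* (0.996), and *Pgap2* (0.996), on log2 normalized CPM. These are descriptions over 6 points that share the groups, and 141 genes had an r of at least 0.95. *Ifi207*, a member of the AIM2-like family, had 340, 201, and 207 normalized CPM in WT and 145, 151, and 127 in Ifnar1-/- libraries (adjusted p = 0.0819 from edgeR).

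**Figure D3:**
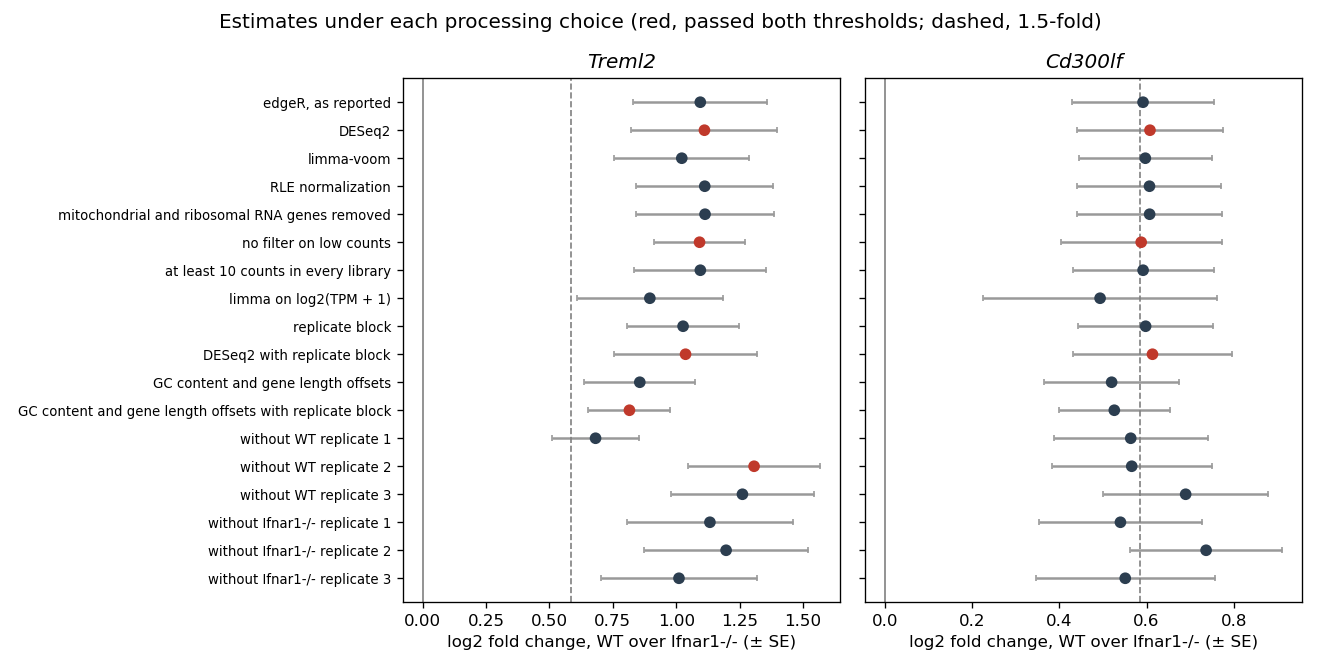
Log2 fold change of WT over Ifnar1-/- (± SE) for *Treml2* and *Cd300lf* as reported (top) and under each of 17 alternatives, in red where both thresholds were passed. All estimates lie above 0, from 0.68 to 1.31 for *Treml2* and from 0.49 to 0.74 for *Cd300lf*.

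The activating TREM receptors overlapped between the groups. *Trem1* (ENSMUSG00000042265.13) encodes TREM-1, a DAP12 partner that amplifies inflammatory responses of monocytes and neutrophils. Normalized CPM was 150, 115, and 128 in WT and 187, 113, and 144 in Ifnar1-/- monocytes. Library 1 was the highest and library 2 the lowest in each group. Its fold was 0.884 (95% interval 0.656 to 1.19, adjusted p = 0.680 from edgeR). The interval leaves out a 1.5-fold higher level in WT monocytes but not a 1.5-fold lower one.

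*Trem3* (ENSMUSG00000041754.5) encodes a mouse receptor close to TREM-1 that also pairs with DAP12. Normalized CPM was 7.26, 14.9, and 14.0 in WT and 11.9, 9.32, and 15.6 in Ifnar1-/- monocytes, with the lowest value in WT library 1. The fold was 0.970 (95% interval 0.614 to 1.53). The summed neutrophil markers in the same order were 487, 915, and 2479 in WT and 1111, 979, and 2849 in Ifnar1-/- monocytes. The part of neutrophil RNA in *Trem3* was not tested.

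*Treml4* (ENSMUSG00000051682.15) encodes a DAP12-associated receptor that binds dead cells and is known from Ly6C-low patrolling monocytes and some dendritic cells. Normalized CPM was 5.26, 3.19, and 4.15 in WT and 4.43, 2.71, and 3.68 in Ifnar1-/- monocytes, from only 15 to 37 expected counts. The groups overlapped, with a fold of 1.17 (95% interval 0.701 to 1.97, adjusted p = 0.764 from edgeR). The interval leaves out a 1.5-fold lower level in WT monocytes but not a 1.5-fold higher one.

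*Tyrobp* (ENSMUSG00000030579.10) encodes DAP12, the ITAM adaptor that several of these receptors need to reach the cell surface and to signal. Normalized CPM was 217, 222, and 211 in WT and 253, 236, and 256 in Ifnar1-/- monocytes. Each WT library lay below each Ifnar1-/- library, as in 12.2% of all tested genes. The difference was small, with a fold of 0.873 (95% interval 0.712 to 1.07, adjusted p = 0.474 from edgeR), and the interval leaves out a 1.5-fold difference in either direction. On the TPM scale the groups overlapped. With offsets for GC content and gene length the log2 fold change moved from -0.20 to -0.02. For *Treml2*, *Cd300lf*, and *Tyrobp*, a two-sided exact permutation test gave p = 0.1, the smallest that 3 libraries against 3 allow, and for the other 7 genes it gave 0.4 to 1.

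**Figure D4:**
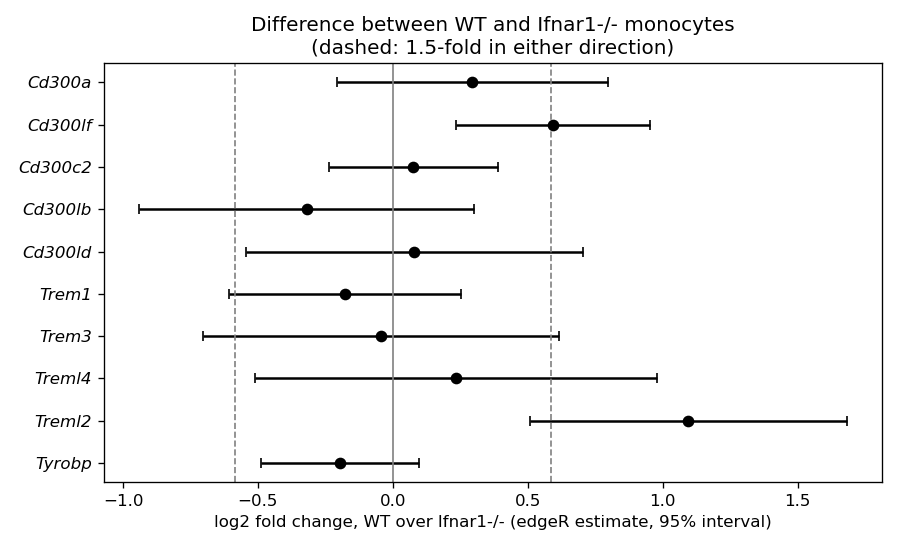
Log2 fold change of WT over Ifnar1-/- for each of the 10 genes (edgeR estimate with its 95% interval), with dashed lines at a 1.5-fold difference. The intervals of *Treml2* and *Cd300lf* lie above 0 before adjustment for multiple tests, and the other 8 include 0.

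Of the other genes of both families, 9 were matched and 2 were tested, and 0 were called by edgeR (2.13% of all tested genes). There were also 0 at an unadjusted p under 0.05 with edgeR (17.8%) and 0 called with DESeq2 (3.83%) or limma-voom (1.96%). *Trem2*, a lipid receptor of microglia and macrophages that signals through DAP12, stood at 47.6 ± 2.67 (WT) and 52.7 ± 8.01 normalized CPM (SD, n = 3) in Ifnar1-/- monocytes (adjusted p = 0.655 from edgeR). *Cd300lg* had 3.82 ± 1.71 and 4.02 ± 1.64 (adjusted p = 0.929). *Cd300ld3* and *Cd300ld5* each reached at most 10 expected counts. *Cd300c*, *Cd300e*, *Cd300ld4*, and *Treml1* had at most 3 counts in any library, and *Cd300ld2* had 0, so their differences were not detectable at this depth.

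The signaling genes around these receptors were not called by edgeR. All 31 ITAM pathway genes were tested, with 6 at an unadjusted p under 0.05 in edgeR, against 17.8% of all tested genes. Of the 31, edgeR called 0 (2.13% of all tested genes), DESeq2 called 1, *Pik3cd* (3.83%), and limma-voom 0 (1.96%). Their median log2 fold change was 0.28, with 23 above 0 and 8 below. Over all tested genes the median was -0.01, with 5429 above 0 and 5825 below. *Fcer1g*, the Fc receptor γ chain, had the highest level of the list at 1000 TPM, and 585 ± 54.9 normalized CPM (SD, n = 3) in WT against 463 ± 92.3 in Ifnar1-/- monocytes (adjusted p = 0.348 from edgeR). *Prkcd*, a protein kinase C, had 517 ± 147 and 425 ± 61.7 (adjusted p = 0.526). *Lyn*, a Src-family kinase that phosphorylates both ITAMs and ITIMs, had 483 ± 61.2 and 497 ± 78.4 (adjusted p = 0.937).

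Of 12 ITIM pathway genes, 11 were tested, with 2 at an unadjusted p under 0.05 in edgeR, against 17.8% of all tested genes. Of the 11, 0 were called by edgeR, DESeq2, or limma-voom (2.13%, 3.83%, and 1.96% of all genes). Their median log2 fold change was 0.22. *Ptpn6* (SHP-1) had 330 ± 51.1 (WT) and 291 ± 40.3 (Ifnar1-/-) normalized CPM (SD, n = 3), and *Inpp5d* (SHIP) had 315 ± 74.3 and 237 ± 32.7 (adjusted p = 0.609 and 0.291 from edgeR). *Csk*, the kinase that restrains Src-family kinases, had 130 ± 19.6 and 90.6 ± 6.47, without overlap of the groups (adjusted p = 0.118 from edgeR).

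Among 11 further receptors that use DAP12, 9 were tested and 1 was called by edgeR, with WT higher, against 1.67% of all tested genes. DESeq2 also called *Plxna1*, against 3.83% of all genes it tested. At an unadjusted p under 0.05 in edgeR there were 4, against 17.8% of all tested genes. The called gene was *Klrk1*, the gene of the receptor NKG2D of NK cells and T cells, with 13.5, 16.2, and 15.4 normalized CPM in WT and 3.82, 5.08, and 1.84 in Ifnar1-/- monocytes. With edgeR, the fold reached 2.05 on the log2 scale (SE 0.31, adjusted p = 0.0057). The summed T cell markers given above were also higher in every WT library, and their part in the *Klrk1* difference was not tested. The myeloid receptors of this list with the highest levels were not called. *Clec5a* had 249 ± 45.5 (WT) and 363 ± 83.0 (Ifnar1-/-) normalized CPM (SD, n = 3) (adjusted p = 0.194 from edgeR), *Sirpb1c* had 211 ± 16.2 and 218 ± 10.3 (adjusted p = 0.898), and *Csf1r*, which engages DAP12 indirectly, had 1001 ± 188 and 826 ± 107 (adjusted p = 0.470).

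Of 6 genes for reported ligands or partners, 4 were tested and 0 were called by edgeR, DESeq2, or limma-voom (2.13%, 3.83%, and 1.96% of all genes). At an unadjusted p under 0.05 in edgeR there was 1, *Hmgb1*, against 17.8% of all tested genes. *Apoe*, whose product binds TREM2, had 2635, 863, and 1427 normalized CPM in WT and 780, 1057, and 1309 in Ifnar1-/- libraries, with WT library 1 far above the rest (adjusted p = 0.367 from edgeR). *Hmgb1*, a nuclear protein described as a TREM-1 ligand, had 119 ± 4.07 (SD, n = 3) in WT and 160 ± 4.92 in Ifnar1-/- monocytes (adjusted p = 0.126). *Il4ra*, whose product has been reported to associate with CD300f, had 513 ± 61.9 and 496 ± 17.8 (adjusted p = 0.907).

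**Figure D5:**
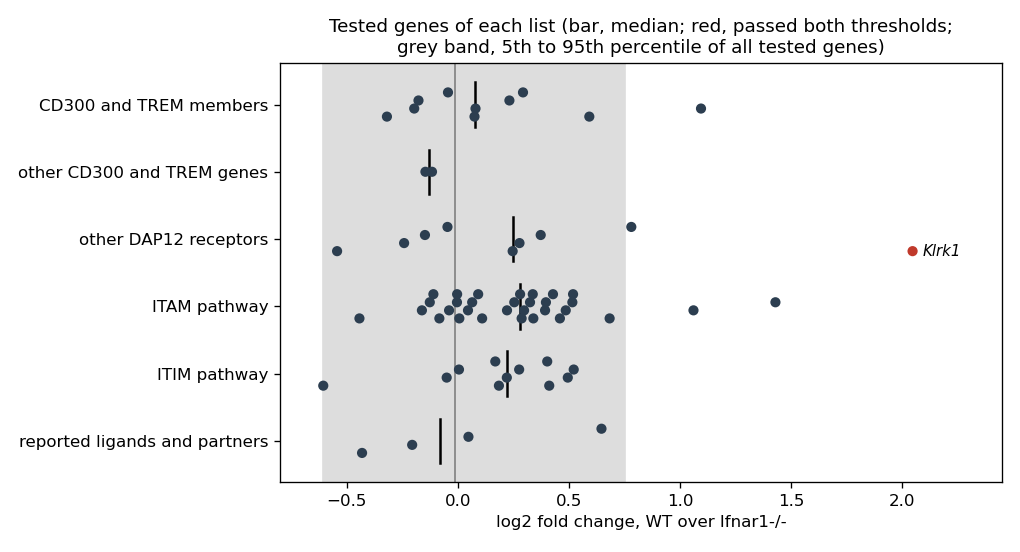
Log2 fold change of WT over Ifnar1-/- for the tested genes of each list, with black bars at list medians and a grey band from the 5th to the 95th percentile of all tested genes. *Klrk1*, in red, is the only gene of these lists that passed both thresholds, and *Treml2* lies above the band at 1.09.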

How the data were processed

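Monocytes were sorted from the CNS of rIFN-β-treated WT/Ifnar1-/- chimera mice, and 3 WT and 3 Ifnar1-/- libraries were grouped by the deposited labels. The authors mapped paired-end reads to GRCm38 and quantified genes with RSEM (RSEM 1.2.31 and STAR 2.6.0c, per the submitters' processing notes). The deposited expected counts are estimated reads per gene and not normalized, and the deposited TPM and FPKM are per effective length. The labels and the study's methods name different library kits, both stranded, and the strand setting of counting is not given in the sources used here. RSEM divides reads that fit several genes.

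Expected counts were rounded and tested with edgeR 4.0.16 in R 4.3.3 (TMM, filterByExpr with a minimum count of 10, quasi-likelihood test, Benjamini-Hochberg adjustment over 11254 genes), without a block, at the study's thresholds (adjusted p of at most 0.05, fold of at least 1.5). The study tested genes with DESeq2 at these thresholds, and DESeq2 is an alternative here. Folds are WT over Ifnar1-/-. GENCODE M21 matched 54165 of 54232 identifiers. Pearson's r and exact permutation tests used log2(normalized CPM + 0.5). Totals were 4531782 to 7321380 counts per library, and the fits take their precision from the spread between libraries, which exceeded counting error (chi-square per gene of 11.1 to 38.9 between libraries of a group). The fits were tested on simulated data.

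Alternatives were DESeq2 1.42.0, limma-voom (limma 3.58.1), RLE factors, removal of mitochondrial and ribosomal RNA genes, no filter, at least 10 counts in every library, limma on log2(TPM + 1), adjusted p alone, a replicate block, the block in DESeq2, offsets for GC content and length (with and without the block), each library left out, and FPKM. Comparing groups in TPM was chosen after seeing the data. The members and gene lists were chosen with earlier results of these data known. Named outside the members were all called genes of each list, the 3 with the highest TPM, and the 3 most like the member with the smallest p. *Csf3r*, *Pik3cd*, *Il7r*, *Ccr2*, *Cd22*, *Cd79b*, *Plxna1*, *Ly6c2*, *Rn7s2*, and genes in the closing section were named after their values were seen. Of the listed names, *Trem5* is a synonym of *Cd300e* and *Treml6* had no match. Protein sequences were not used here.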

Additional observations from a re-analysis of the deposited data

How the results depend on the processing

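The number of CD300 and TREM genes called was 0 as reported and also with limma-voom, RLE factors, ribosomal RNA genes removed, at least 10 counts in every library, limma on TPM, adjusted p alone, GC content and length offsets, and the replicate block. It was 2 with DESeq2, 2 without a filter on low counts, and 2 with DESeq2 and the block (*Treml2* and *Cd300lf* each time), 1 with offsets and the block (*Treml2*), and 0 to 1 when each library was left out. For ITAM and ITIM pathway genes the number was 0 as reported, 1 with DESeq2 (*Pik3cd*), 2 without a filter (*Pik3cd*, *Dok2*), 1 with offsets and 1 with offsets and the block (*Dok2*), and 0 to 1 with each library left out (*Pik3cd* without WT library 2). Groups did not overlap for 3 members in normalized CPM and for 1, *Treml2*, in TPM. The direction of *Trem3* turned with offsets (0.085) and with offsets and the block (0.070). With each library left out, it ranged from -0.22 to 0.24 for *Trem3*, from -0.32 to 0.046 for *Trem1* (above 0 without Ifnar1-/- library 1), and from -0.32 to 0.29 for *Cd300ld* (below 0 without WT library 1). Of 170 alternative fold changes of the 10 genes, 156 kept direction and side of the thresholds. The cause of these changes was not tested. Log2 fold changes over all tested genes correlated with GC content (Spearman's rho = 0.379) and with log gene length (0.216). The part of this in the estimates of single genes was not tested. Over all genes, 240 were called as reported, 419 with DESeq2, 872 without a filter, 128 in TPM, and 119 to 245 with each library left out.

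Same-numbered libraries deviated together with correlations of 0.0906, 0.0278, and 0.275 across genes, and other pairs with -0.196 to 0.0920. WT libraries 2 and 3 correlated best with their own number, and WT library 1 with Ifnar1-/- library 2 (0.0920). These values do not decide whether the numbers are a pairing. The sources used here do not state one, so the reported edgeR test had no block and would leave out such a pairing. With the replicate block 0 members were called and 220 genes in all. *Treml4*, *Cd300lb*, *Cd300ld*, and *Trem3* had no more than 128 expected counts in any library and SEs of 0.28 to 0.34, and *Treml2*, with up to 632 counts, had an SE of 0.26. The share of counting error in these was not tested.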

Other observations

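Several pathway genes, named after their values were seen, had groups that did not overlap although they did not pass the edgeR test. There were 4 such genes of 31 tested in the ITAM list and 3 of 11 in the ITIM list, against 23.4% of all tested genes without overlap. In the ITAM list these included *Pik3cd*, the catalytic PI3K δ subunit (119 to 214 normalized CPM in WT and 99.0 to 103 in Ifnar1-/- libraries, adjusted p = 0.122 from edgeR), *Ptk2b*, the kinase PYK2 (135 to 187 and 95.1 to 128, adjusted p = 0.177), and *Nfatc1*, a transcription factor downstream of calcium signals (75.7 to 91.6 and 48.4 to 68.5, adjusted p = 0.147). These 3 were higher in each WT library, as were 11.1% of all tested genes. In the ITIM list, *Dok2*, an adaptor that limits Ras signals, was lower in each WT library (34.2 to 46.7 and 53.7 to 73.0, log2 fold change -0.61, adjusted p = 0.107 from edgeR), as were 12.2% of all tested genes. *Plxna1*, a plexin that works with TREM2 and DAP12, had 179 to 241 in WT and 74.5 to 158 in Ifnar1-/- libraries (adjusted p = 0.144 from edgeR).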
